A study of Bos taurus with 22 samples.

Results

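Complement is a cascade of blood and tissue proteins that marks cells and particles for removal. Recognition by the classical pathway activates the proteases C1r and C1s, the alternative pathway amplifies the response through C3, factor B and factor D, and both lead to a terminal pathway in which C7 and its partners assemble a pore in membranes. Host cells limit the cascade with surface proteins such as CD55 and CD59. Adipose tissue makes several of these proteins, and factor D was described as adipsin, a product of mouse adipocytes.

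The genes described here are complement components and regulators: C3, CFD, CFB, C1R, C1S, C7, CD55 and CD59. They were found as the probe sets whose single gene symbol in the array's annotation was one of these 8 names. Of the 8 genes, 7 had such a probe set, 3 of them for C3 and 1 for each of the others, which made 9 probe sets of 24016 bovine probe sets. CD59 had no probe set of that symbol and is not analysed here.

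The study measured transcripts with Affymetrix bovine arrays in subcutaneous white adipose tissue from the dorsal region beside the ischium of Holstein heifers. The postpartum group held 11 arrays of tissue taken 14 days after the first calving, in early lactation, and the prepartum group held 11 arrays of tissue taken 30 days before calving from the same 11 cows by the labels. All cows calved at 24 to 28 months of age on the same farm. The labels describe a prepartum ration and, separately, postpartum feeding, so feed, pregnancy, lactation and time cannot be told apart in this comparison. The tissue was not separated into cells, so that fewer cells of a type and less RNA per cell cannot be told apart.

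ADIPOQ and FABP4, which adipocytes make in quantity, had signals of at least 736 and 6246 on every array. Skeletal muscle transcripts were high on some: the summed signal of 12 muscle markers was 84113 in the postpartum array of cow 384 and 53817 in the prepartum array labelled cow 387, against medians of 2656 postpartum and 2338 prepartum. The pair labelled cow 387 was in doubt as a pair, since its 2 arrays correlated at -0.09 after subtraction of group means, against 0.18 to 0.43 in the other 10 cows. In 3 of those, cows 330, 341 and 384, the prepartum array also correlated better with another cow's postpartum array (0.24, 0.31 and 0.30) than with its own (0.18, 0.23 and 0.21). The prepartum array labelled cow 387 correlated at 0.64 with the postpartum array of cow 384, and these 2 arrays had the highest muscle sums. The part of muscle content in these correlations was not tested. KRT10, an epidermal keratin, was at most 6.90 log2 units in any postpartum array, whereas 4 prepartum arrays (cows 330, 331, 341, 382) had 9.34 to 12.55. The change of each gene is given with all cows and without these cows. Each title also carries 1 of 2 codes of unstated meaning. Both arrays of a cow share a code, and the codes are called set 2, with 6 cows, and set 1, with 5.

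The main comparison asked how complement transcripts differed between early lactation and late pregnancy. C7 rose 2.10-fold, and its rise was the 14th largest among 6984 genes. CFB, CD55, CFD and C1R had positive mean changes that did not pass the test, C1S had a mean change of 0.11 log2 units, and the mean change of C3 was near 0 with wide differences between cows. Levels are the authors' MAS5 signals, and changes are postpartum minus prepartum on the scale of log2(signal + 7.78), which understates the change of dim genes. The test was limma's moderated test with cow as a block, adjusted over all 14410 probe sets that passed a filter on dim ones (Benjamini-Hochberg, threshold 0.05). All 9 complement probe sets passed that filter, and 1 of the 9 passed the test, higher postpartum, against 3.43% of all probe sets in either direction (1.44% higher and 1.98% lower). By gene it was 1 of 7, against 3.71% of all genes (1.55% higher).

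**Figure D1:**
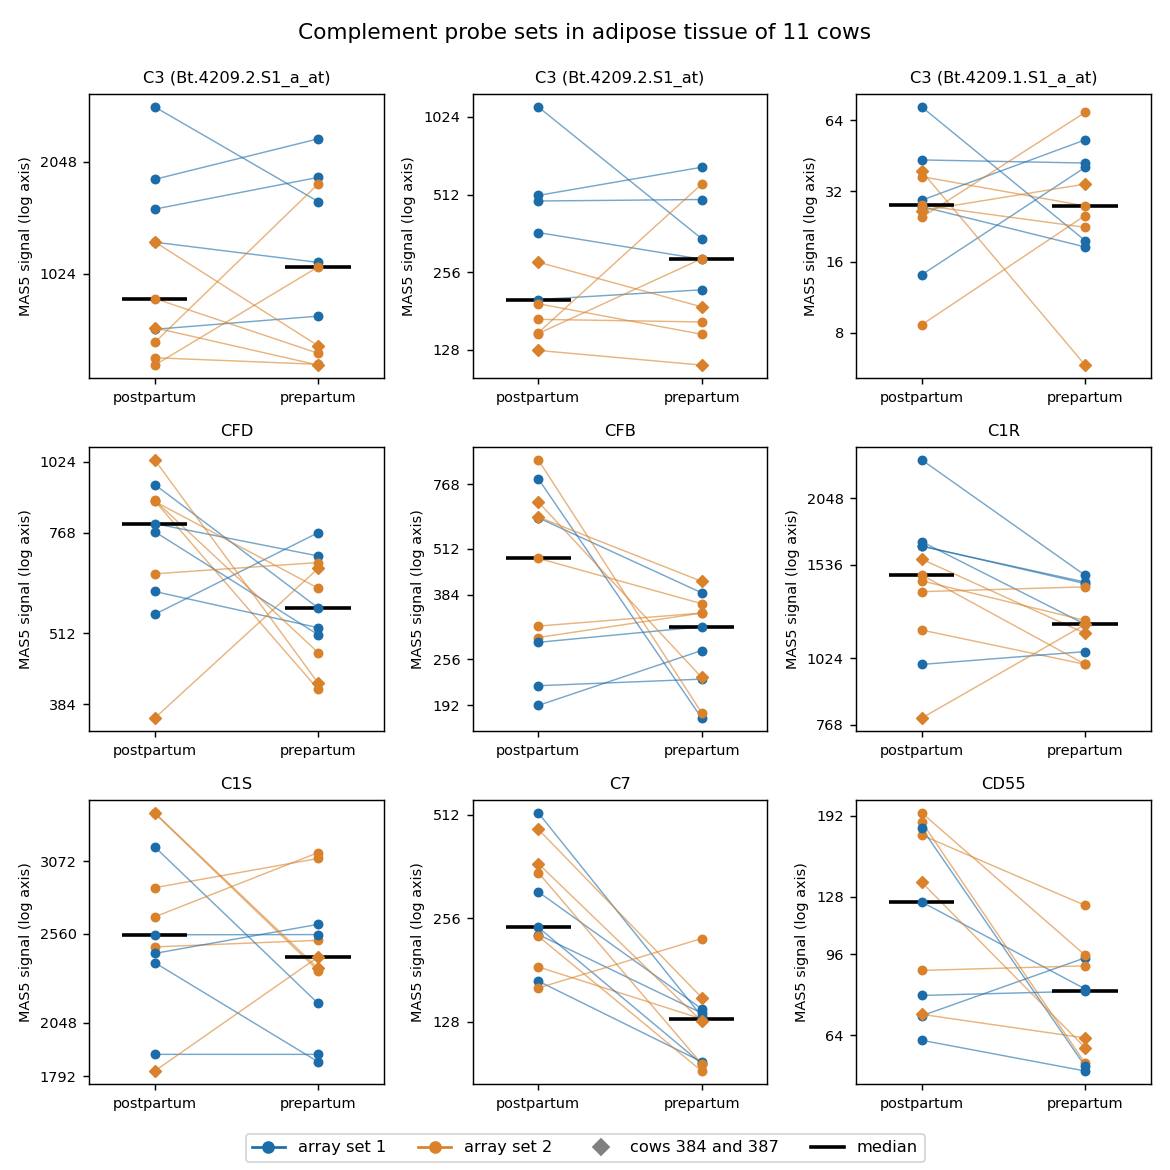
MAS5 signal of each complement probe set (log axis), postpartum on the left and prepartum on the right, with a line for each of 11 cows, colours for the array sets, diamonds for cows 384 and 387 and bars for the group medians. The C7 lines fall to the right in 10 of 11 cows, whereas those of C3 cross.

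C7 encodes the terminal pathway protein that anchors the forming pore in the membrane. Its signal had a lowest value of 160.3, a median of 241 and a highest of 518 postpartum, against 91.9, 130.4 and 223 prepartum. The groups overlapped, but 8 of the 11 postpartum signals lay above the highest prepartum one, which came from cow 386. The closest of the 8 was 226.8 in cow 346, against 223.3 prepartum in cow 386. On the log2 scale C7 averaged 8.13 ± 0.56 postpartum and 7.06 ± 0.36 prepartum (SD, n = 11 each), a change of 1.07 with a 95% interval of 0.69 to 1.45 (SE 0.18, limma adjusted p = 0.00518). It was higher postpartum in 10 of 11 cows. The exception was cow 386, with 160.3 postpartum and 223 prepartum, and the largest rise was that of cow 360, with 518 postpartum and 133 prepartum.

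The rise of C7 was of similar size in both array sets, at 1.01 in set 2 (SD 0.85, n = 6 cows, 5 higher) and 1.14 in set 1 (SD 0.48, n = 5 cows, 5 higher). Within set 2 alone it did not pass limma's test (adjusted p = 0.274), and neither did any other probe set there, although 1526 had an unadjusted p under 0.05. Without cows 384 and 387 the change was 0.97 (adjusted p = 0.0103, against 7.43% of all probe sets called), and without cow 387 alone it was 1.02 (adjusted p = 0.00987, with 4.31% of all probe sets called). Without cows 330, 331, 341 and 382 it was 1.15 but no longer passed (adjusted p = 0.132), in a fit that called 6 probe sets in all (0.0416%). An exact two-sided sign-flip test over the 11 cows, run on each of the 9 probe sets without adjustment, gave p = 0.00195 for C7.

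Markers of cell types were read beside this rise. Of 13 fibroblast and progenitor markers tested, PI16 rose and MFAP5 fell, and their summed signal was 22261 to 47687 postpartum and 33097 to 44468 prepartum. Of 9 macrophage markers none passed, although all 9 had positive changes (median 0.29 log2 units, and 0.12 without cows 384 and 387), and their summed signal was 2178 to 9447 postpartum, highest in cow 387, and 2244 to 5095 prepartum. Of 5 neutrophil markers none passed, although all 5 had positive changes (median 0.47 with all cows and without cows 384 and 387), with summed signals of 396 to 7454 postpartum and 422 to 2795 prepartum. Of all tested genes 52.6% had positive changes. The neutrophil level, the median of its centred markers, changed by -1.35 (cow 341) to 2.97 (cow 346) log2 units in single cows. The macrophage level, taken likewise, changed by -0.84 (cow 331) to 2.21 (cow 387). GPD1, LEP and LPL fell among 12 adipocyte markers, TEK and VWF rose among 9 endothelial markers, and TTR rose among 4 hepatocyte markers. None passed among 12 skeletal muscle, 7 smooth muscle and pericyte, 6 mast and lymphoid or 2 epidermis markers. Of the 12 skeletal muscle markers 11 had positive changes. No marker tested was at 0 on any array. The part of these cells in the changes of the complement genes was not tested.

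C1R and C1S encode the 2 proteases of the first complement component: C1r activates C1s, which then cleaves C4 and C2. C1R had signals of 791, 1469 and 2419 postpartum (lowest, median and highest) and 998, 1187 and 1467 prepartum. Of the postpartum signals 6 lay above the prepartum range, that of cow 382 (1469.3) only just above the highest prepartum signal of 1467.3. Those of cow 384 (791), the array with the highest muscle markers, and cow 331 (997.8) lay below it, the second only just below the lowest prepartum signal of 998.0. The change was 0.22 log2 units (SE 0.10, limma adjusted p = 0.249, higher in 8 of 11 cows). Without cow 384 it was 0.31 and passed (adjusted p = 0.0353), in a fit that called 969 probe sets in all, against 494 with all cows. Without any other single cow it was 0.18 to 0.26 and did not pass (adjusted p = 0.238 to 0.417). Without cows 384 and 387 the change was 0.29 (adjusted p = 0.055), and within set 2 alone it was 0.14 (adjusted p = 0.790). The sign-flip test gave an exact p = 0.0625.

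C1S had signals of 1816, 2554 and 3467 postpartum and 1858, 2416 and 3138 prepartum. The groups overlapped almost throughout, and the gene was higher postpartum in 5 of 11 cows. Its change was 0.11 log2 units, with a 95% interval of -0.11 to 0.32 (SE 0.10, limma adjusted p = 0.608). The cows fell on both sides: cows 360, 382 and 387 had changes of 0.56, 0.57 and 0.56, and cows 384 and 386 had changes of -0.41 and -0.23. The mean change was also 0.11 without cows 384 and 387 (adjusted p = 0.499). The sign-flip test gave an exact p = 0.319.

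C3 encodes the central component, on which the pathways converge and whose cleavage products coat targets. It had 3 probe sets. The brightest had signals of 582, 879 and 2876 postpartum and 582, 1069 and 2361 prepartum, so that the groups covered nearly the same range. Its change was -0.02 log2 units, with a 95% interval of -0.41 to 0.37 (SE 0.18, limma adjusted p = 0.967), and 6 of 11 cows were higher postpartum. The mean near 0 covered opposite changes in single cows. In cow 387 the signal was 1248 postpartum and 656 prepartum, in cow 360 it was 2876 postpartum and 1602 prepartum, and in cow 386 it was 670.0 postpartum and 1785 prepartum. The mean change was -0.16 without cows 384 and 387 (adjusted p = 0.638).

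The next probe set, with signals of 127 to 1119.6 postpartum and 111 to 653 prepartum, changed in the same direction as the brightest one in 11 of 11 cows, with a mean change of -0.01 (SE 0.23, limma adjusted p = 0.986). Their changes correlated at 0.93 over the 11 cows. The remaining one was dim, with 8.65 to 72.9 postpartum and 5.83 to 69.1 prepartum. It shared the direction of the brightest in 5 of 11 cows, at a correlation of 0.44, and its mean change was 0.00 (limma adjusted p = 0.998). These 2 probe sets had changes of -0.10 and -0.17 without cows 384 and 387 (adjusted p = 0.858 and 0.745). The sign-flip test gave exact p-values of 0.928 to 0.992 over the 3 C3 probe sets. Without cows 360 and 386 that correlation was 0.02, and the one between the brighter probe sets was 0.94.

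CFB encodes factor B, the protease of the alternative pathway convertase. Its signals were 192, 482 and 894 postpartum and 177, 314 and 417 prepartum, with 6 of 11 postpartum arrays above the prepartum range. The change of 0.60 log2 units did not pass (1.51-fold, SE 0.25, limma adjusted p = 0.193). The cows differed widely. Cow 382 had 894 postpartum and 183 prepartum, cow 360 had 794 postpartum and 177 prepartum, and cow 384 had 686 postpartum and 229 prepartum, whereas 5 cows were lower postpartum, by at most 0.48 log2 units (cow 331). Leaving out cows 384 and 387 gave a change of 0.49 (adjusted p = 0.287). The sign-flip test gave an exact p = 0.0752.

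CFD encodes factor D, the protease that cleaves factor B once it is bound to C3b. Its signals were 363, 797 and 1032 postpartum and 408, 567 and 769 prepartum. In 7 cows the postpartum signal lay above the prepartum range, in cow 341 only just (771.7 against 768.7), and in cow 384 it lay below it. CFD had a change of 0.37 log2 units (1.29-fold, SE 0.17, limma adjusted p = 0.250) and was higher in 8 of 11 cows. Cow 384 had 363 postpartum and 665 prepartum, the most negative change. That postpartum array had the lowest postpartum sum of 6 of the 10 marker lists (adipocyte, fibroblast, endothelial, mast and lymphoid, epidermis and hepatocyte) and the highest skeletal muscle sum. The largest rise was that of cow 387, with 1032 postpartum and 418 prepartum. Without cows 384 and 387 the change was 0.40 and did not pass (adjusted p = 0.0892). It was 0.28 without cow 387 alone (adjusted p = 0.369) and 0.49 without cow 384 alone (adjusted p = 0.0566). The sign-flip test gave an exact p = 0.0938.

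CD55 encodes decay accelerating factor, a membrane-anchored regulator that takes the C3 convertases apart. Its signals were 62.3, 125 and 195 postpartum and 53.4, 79.8 and 123 prepartum. Of 11 postpartum arrays 6 lay above the prepartum range, that of cow 341 only just (124.7 against 122.6). The change was 0.57 log2 units (1.48-fold, SE 0.18, higher in 8 of 11 cows) and did not pass limma's test (adjusted p = 0.0951, and 0.062 to 0.185 without single cows). It was 0.56 without cows 384 and 387 (adjusted p = 0.104). The sign-flip test, unadjusted, gave an exact p = 0.0195. The largest changes were 1.62 in cow 346 and 1.59 in cow 360, and the lowest was -0.38 in cow 331.

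**Figure D2:**
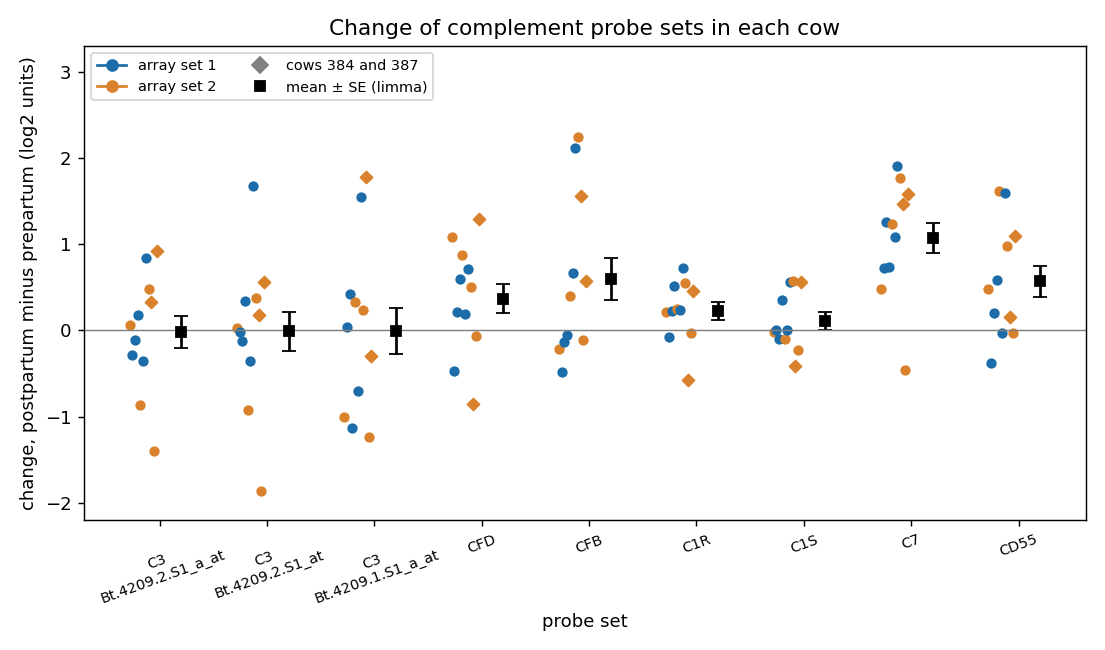
Change of each complement probe set in each of 11 cows, postpartum minus prepartum in log2 units, with the mean and SE of the limma fit as black squares. C7 lies above 0 in all cows but 1, and CFB and C3 have the cows spread over both sides of 0.

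Across the 7 genes, 6 had a positive mean change and 5 an unadjusted p under 0.05, against 52.6% and 20.8% of all 6984 tested genes. By probe set, 5 of 9 had an unadjusted p under 0.05, against 19.8% of all, and CFD (p = 0.0492) and C1R (p = 0.0487) were close to that threshold. The 5 became 2 without cow 360 or cow 382, and 3 without cow 330, 338, 341, 346, 347 or 387. Of all 14410 probe sets, 2852 had such a p with all cows, 2549 without cow 360 and 2484 without cow 382. In the fits with a count of 3 it was 2467 (without cow 346) to 2994 (without cow 387). The median change was 0.37 over the 7 genes and 0.01 over all genes. These genes share arrays and cows, are not independent and were chosen with earlier results of these data known. The counts therefore describe the list and test nothing. Without cows 330, 331, 341 and 382 the changes were 0.72 for CFB, 0.66 for CD55, 0.34 for CFD, 0.18 for C1R, 0.04 for C1S and -0.09 for the brightest C3 probe set, with none past the test (limma adjusted p = 0.383 to 0.938). The next C3 probe set was at -0.12 and the dim one at 0.26. The difference between array sets was fitted as an interaction: it lay between -0.58 and 0.32 log2 units (set 2 minus set 1) over the 9 probe sets, with limma adjusted p = 0.997 for each. Of 14410 probe sets 0 passed for this difference (0%), and 516 (3.58%) did so before adjustment.

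The cows differed in how the genes moved together. All 7 genes were higher postpartum in cows 360, 382 and 387, with median changes of 0.84, 0.57 and 0.92 log2 units. In cow 386 all 7 were lower postpartum, from -0.03 for C1R to -1.40 for C3, and that postpartum array had a summed muscle marker signal of 10279, against 2338 prepartum. In cow 331 the 5 genes other than C7 and C1S were lower, and C1S was at its prepartum level. The median change over all genes in these 5 cows was between -0.03 and 0.06. Cow 384 divided the list: C7 and CFB were higher by 1.47 and 1.55, and CFD, C1R and C1S lower by -0.86, -0.58 and -0.41.

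**Figure D3:**
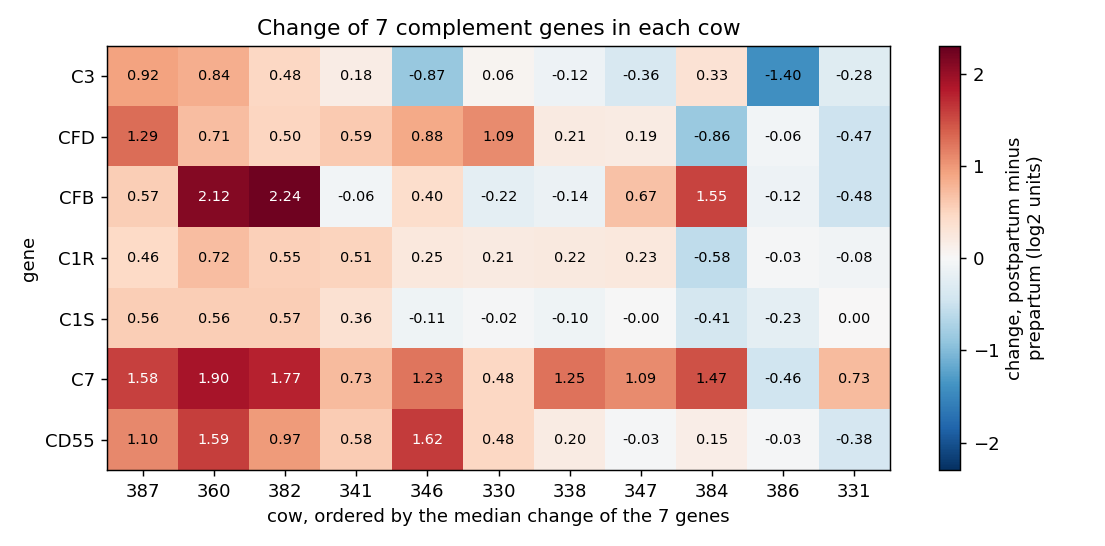
Change of 7 complement genes (rows) in each of 11 cows (columns, ordered by their median change), postpartum minus prepartum in log2 units, with red for higher and blue for lower postpartum. Cows 387, 360 and 382 are red throughout and cow 386 has no gene above 0.

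Levels of most complement probe sets, as of most kept probe sets, varied more between cows postpartum than prepartum. The SD of the log2 levels was larger postpartum for 7 of 9 probe sets, and so it was for 72.9% of all kept probe sets. The ratio of the SDs, postpartum over prepartum, was 2.08 for C1R, 1.82 for CFB, 1.64 for CD55 and 1.58 for C7, against a median of 1.26 over all. Without cows 384 and 387 the ratios were 1.60, 1.91, 1.63 and 1.37 in the same order, against a median of 1.05. CFD and C1S had ratios of 0.92 and 0.93 without these cows, and of 1.41 and 1.27 with them. The C3 probe sets, from brightest to dimmest, had 1.11, 1.34 and 1.23 without these cows, and 0.99, 1.18 and 0.89 with them. Without these cows the SD was larger postpartum for 7 of 9 probe sets, against 55.6% of all.

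The changes of the genes were also compared cow by cow. All 21 pairs of the 7 genes had a positive Pearson correlation of their changes over 11 cows, from 0.005 (CFD with CFB) to 0.87, with a median of 0.56. The correlation of the median gene with each of the 7 ran from 0.02 (CFB) to 0.18 (C1R). The sign was not the same in every subset: CFB had correlations of -0.45 with C1R and -0.23 with C1S without cows 382 and 360, and CFD with CFB was at -0.37 in set 2 and -0.05 without cow 386. Each pair shares its arrays and their scaling, and these p-values are adjusted over the 21 pairs only. The closest pair was C1R and C1S (Pearson r = 0.87, permutation p = 0.00011, adjusted p = 0.00231, and Spearman rho = 0.78, permutation p = 0.00625, adjusted p = 0.0403), whose genes neighbour each other in the RefSeq table. Without cows 384 and 360, the 2 farthest from the median change of C1R, r was 0.83 and no longer passed (permutation p = 0.00784, adjusted p = 0.0823). It was 0.88 without cows 384 and 387 and 0.87 in the 6 cows of set 2 (correlations were given for 6 cows or more, so none for the 5 of set 1). C1S ranked 49th of 6983 genes by the correlation of its changes with those of C1R, and the median gene correlated with C1R at 0.18. By the same measure C7 ranked 19th with C3 and 37th with CFB, and C1R ranked 143rd with CFD. In the other direction C1R ranked 11th with C1S, C3 16th and CFB 26th with C7, and CFD 223rd with C1R.

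C3 and C7 correlated at r = 0.77 (permutation p = 0.00624, adjusted p = 0.0437, and rho = 0.75, permutation p = 0.0107, adjusted p = 0.0449), with 0.71 without cows 386 and 346, 0.55 without cow 386 alone and 0.77 in set 2. CFB and C7 correlated at r = 0.73 (permutation p = 0.00889, adjusted p = 0.0467, and rho = 0.79, permutation p = 0.00574, adjusted p = 0.0403), with 0.58 without cows 382 and 360 and 0.76 in set 2. C3 and CD55 correlated at 0.40 with all cows (permutation p = 0.225, adjusted p = 0.298), but at 0.90 without cows 386 and 346 (permutation p = 0.00115, adjusted p = 0.0241). This was the 1 pair of 21 that passed when the 2 cows farthest from the median change of the first gene named were left out. The same pair was at 0.28 without cow 386 alone, 0.39 without cows 384 and 387 and 0.20 in set 2. CFD and C1R correlated at r = 0.79 (permutation p = 0.00388, adjusted p = 0.0407, and rho = 0.63, permutation p = 0.0431, adjusted p = 0.126). Their r was 0.43 without cows 384 and 331, 0.61 without cows 384 and 387, 0.78 without cow 386 and 0.85 in set 2. CFD and CFB, the protease and its substrate, had r = 0.00 (permutation p = 0.989, adjusted p = 0.989, and rho = 0.05, permutation p = 0.882, adjusted p = 0.882), with 0.32 without cows 384 and 387, 0.08 without cows 384 and 331 and -0.37 in set 2.

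**Figure D4:**
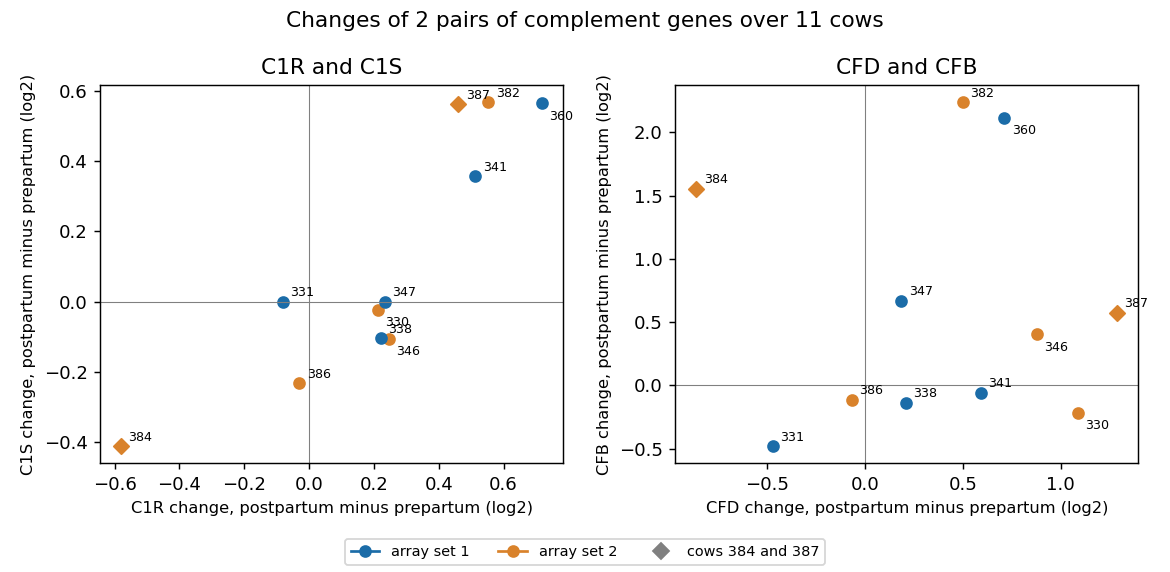
Change of C1S against that of C1R and change of CFB against that of CFD, postpartum minus prepartum in log2 units, with a point for each of 11 cows. The C1R and C1S points lie along a rising line (r = 0.87) and the CFD and CFB points show none (r = 0.00).

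For each gene the 3 genes most like it over the 22 arrays were taken, by Pearson correlation of log2 levels among 6984 genes. The arrays share cows and scaling, so these values are a description. C1S was most like ISLR (0.86), CMTM3 (0.84) and RENBP (0.83) over 22 arrays, and like ISLR (0.87), GAS7 (0.84) and CTDSP2 (0.84) over the 18 arrays without cows 384 and 387. C1R was most like C1QTNF7 (0.87), EPB41L3 (0.86) and CLEC3B (0.84), and over 18 arrays like MAN1A1 (0.89), C1QTNF7 (0.84) and EPB41L3 (0.83). CD55 was most like LAT2 (0.83), LOC407171 (0.82) and PTPN6 (0.80), and over 18 arrays like TCIRG1 (0.86), LAT2 (0.84) and SERP1 (0.83). C7 was most like BOC (0.80), ACKR4 (0.78) and FLOT1 (0.76) over 22 arrays, and like TLR4 (0.86), CDK4 (0.86) and CFI (0.84) over 18. CFB was most like C16H1orf21 (0.75), MOGS (0.74) and C7 (0.74), but PRELP (0.80), LRRC45 (0.79) and KHK (0.79) over 18. CFD was most like MS4A7 (0.83), PTPN6 (0.82) and GNPTG (0.81), and over 18 arrays like PYCARD (0.91), PTAFR (0.88) and RNASE6 (0.81). The genes most like C3 were DNAJC10 (0.78), ALDH16A1 (0.73) and SNRNP27 (0.72), and over 18 arrays GPI (0.85), SNU13 (0.83) and PTI (0.81). No gene was shared between the 2 trios of C3, C7, CFB or CFD.

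Of 46 other complement genes listed, 34 had a probe set of that symbol, 19 passed the filter as the brightest probe set of their gene, and none of the 19 passed limma's test, although 9 had an unadjusted p under 0.05, against 3.71% and 20.8% of all genes. The 9 became 4 without cow 330 or cow 387, 6 without cow 346, 360 or 382, and 10 without cow 338 or cow 384. Of all 14410 probe sets, 2567 had an unadjusted p under 0.05 without cow 330 and 2994 without cow 387, against 2852 with all cows. Without cows 384 and 387 the count was 5 of 19, with 3447 of all probe sets. Without cows 330, 331, 341 and 382 it was 1 of 19, with 1531 of all probe sets. The changes of the 19 genes had a median of 0.22, against 0.01 over all genes, and 14 of 19 were positive, against 52.6%. The list was chosen with earlier results of these data known, so these counts describe it and test nothing. The 3 largest positive changes were those of FCN1, a ficolin of the lectin pathway (0.90, SE 0.35, adjusted p = 0.170), ITGB2, the beta chain of complement receptors 3 and 4 and also on the neutrophil list (0.75, SE 0.30, adjusted p = 0.173), and C4A, which C1s cleaves (0.59, SE 0.24, adjusted p = 0.185). Without cows 384 and 387 they were 0.69, 0.55 and 0.41. The 3 most negative were CLU, or clusterin, a fluid-phase inhibitor of the terminal complex (-0.36, SE 0.15, adjusted p = 0.207), CD46, a membrane cofactor for C3b cleavage (-0.20, SE 0.08, adjusted p = 0.175, lower in 10 of 11 cows), and CD93 (-0.18, SE 0.13, adjusted p = 0.477). A dimmer CD46 probe set had the other sign, at 0.03 (adjusted p = 0.936).

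CFI, or factor I, the protease that inactivates C3b and C4b, had signals of 27.2, 51.8 and 86.3 postpartum and 16.3, 29.7 and 53.0 prepartum. It was higher in 9 of 11 cows, with a change of 0.52 that did not pass (SE 0.16, limma adjusted p = 0.0872). It passed without cow 387 (0.63, adjusted p = 0.0307), without cow 384 (0.59, adjusted p = 0.0405) and without both (0.71, adjusted p = 0.00869). CLU also passed without both (-0.28, adjusted p = 0.0427). Of all probe sets, these fits called 621 without cow 387, 969 without cow 384 and 1070 without both, against 494 with all cows. Among macrophage-made recognition chains, C1QB had a change of 0.49 (adjusted p = 0.116), C1QC of 0.47 (adjusted p = 0.232) and C1QA of 0.23 (adjusted p = 0.503). COLEC12 was represented by its brighter probe set, with a change of 0.22 (adjusted p = 0.260), whereas its dimmer one changed by 0.42 and passed (adjusted p = 0.0273). CFI, the C1q chains, COLEC12 and SERPING1 are named here after their values had been seen. SERPING1, the C1 inhibitor, which restrains C1r and C1s, had a change of -0.12 (SE 0.12, adjusted p = 0.624).

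**Figure D5:**
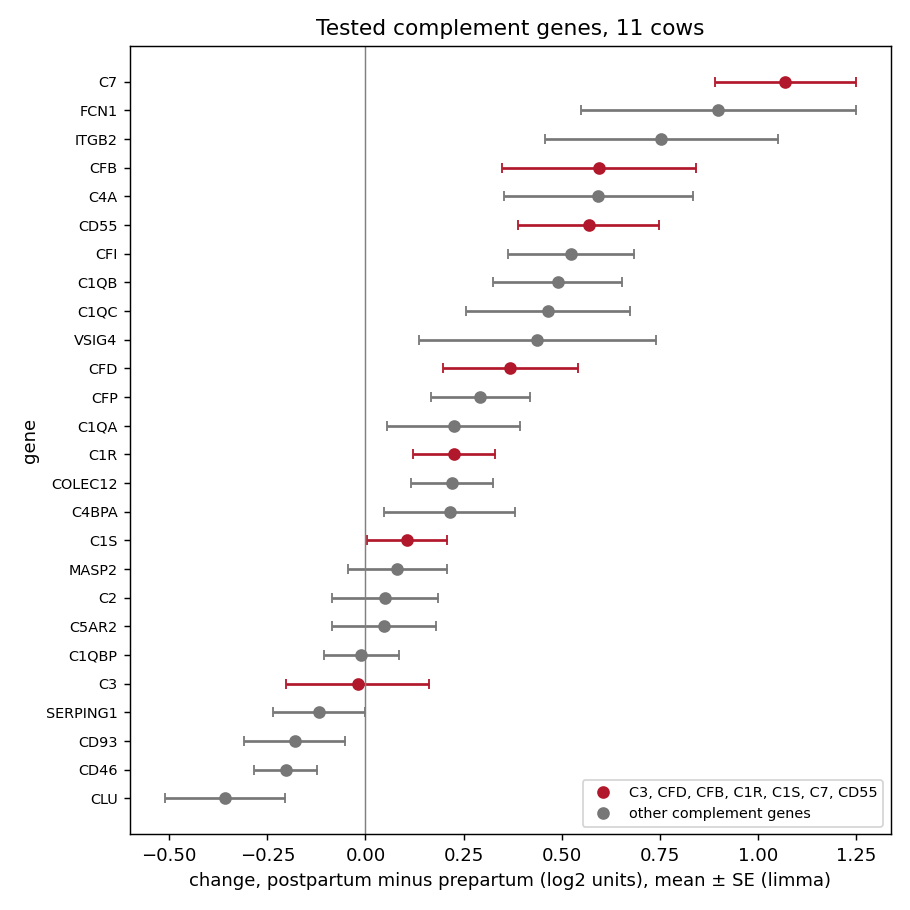
Mean change of the 26 tested complement genes, postpartum minus prepartum in log2 units, with the SE of the limma fit over 11 cows. C7 (red, with the other described genes) lies highest, CLU lowest, and C7 alone passed the test.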

How the data were processed

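The deposited values are linear signal intensities per probe set, made by the authors with MAS5 per the submitters' processing notes. For its settings, and for a genome build, nothing is given in the sources used here. Every array had the same mean, 125.03, once 2% of values were trimmed from each end, so the deposited arrays were already scaled. Arrays have no read depth; their number sets the precision.

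Of 24128 probe sets, 112 array controls were left out. In the annotation 13318 had 1 symbol, 86 had several and 10724 had none, and symbols were updated through a RefSeq gene table (ARS-UCD2.0). Values were analysed as log2(signal + 7.78), a constant set at the 20th percentile of signal (median of the arrays). Probe sets with a mean below the 40th percentile were dropped. A gene outside the described set was represented by its brightest kept probe set. The fit used limma 3.58.1 (R 4.3.3), with a trend on intensity and cow as a fixed block, and was tested on simulated data. Cow numbers in the titles, for animals sampled at both times, gave the pairing, and the correlations given for the cows were its check. Correlation tests used 100000 permutations.

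The described genes, the list of other complement genes and the 10 marker lists were chosen with earlier results of these data known. Named genes were all those described, every called gene of the other list with its 3 highest and 3 lowest changes, and the 3 genes most like each described one. Alternatives varied the block, normalization, pseudocount, filter, trend, weights, set and cows. Figures were drawn with matplotlib 3.10.9.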

Additional observations from a re-analysis of the deposited data

How the results depend on the processing

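Against 494 probe sets, limma called 1076 with array weights and 1070 when cows 384 and 387 were left out. It called 69 among the cows of set 1, 0 among those of set 2 (1526 before adjustment), and 6 when cows 330, 331, 341 and 382 were left out. Leaving out one cow gave 242 (cow 382) to 969 (cow 384), and a fit with no replicate block gave 338. The block changed no call of a complement gene. Of the described probe sets, 1 was called in 21 of 24 alternatives. The count was 0 among the cows of set 2 and when cows 330, 331, 341 and 382 were left out (3 before adjustment in each), and leaving out one cow gave 1 to 2, the second being C1R without cow 384. The change of C7 ran between 0.95 and 1.22 over its alternatives, all positive. Of the other complement genes, against 0 called, 1 passed with array weights, 2 passed when cows 384 and 387 were left out, and leaving out one cow gave 0 to 1. The set interaction called 0 in its 16 alternatives (407 to 1040 before adjustment). Against 4 gene pairs, 1 passed when the 2 cows farthest on the first gene were left out. Some alternatives held fewer cows; otherwise the cause was not tested.

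The change of C3, near 0, turned sign in several alternatives and was called in none. For its brightest probe set it was 0.000182 with quantile normalization, 0.0525 in set 1, and -0.11 to 0.12 when one cow was left out. For the next it was 0.30 in set 1 and -0.18 to 0.17 when one cow was left out. For the dim one it was 0.0125 with a pseudocount of 1, 0.0334 in set 1, 0.26 when cows 330, 331, 341 and 382 were left out, and -0.18 to 0.12 when one cow was left out.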

Other observations

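C6 encodes the terminal component next to C7 in the pore. Its brighter probe set lay below the filter and was noticed after its values had been seen. Its median signal was 23.2 postpartum and 11.3 prepartum, it was higher in 9 of 11 cows, and with no filter its change of 0.68 (SE 0.21) did not pass limma's test (adjusted p = 0.135).

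The level of a gene in a cow after calving was set against its level in the same cow before calving, for 9 probe sets over 11 cows. No correlation passed after adjustment over the 9. For the brightest C3 probe set r was 0.56 (permutation p = 0.0745, adjusted p = 0.251), with 0.63 without cow 387 and 0.42 without the 2 farthest cows. For CFD it was negative, at -0.58 (permutation p = 0.054, adjusted p = 0.251), with -0.50 without cow 387 and -0.51 without the 2 farthest cows. For C7 it was -0.04 (permutation p = 0.917, adjusted p = 0.917), with -0.16 without cow 387 and 0.42 without the 2 farthest cows, 386 and 346.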
